A study of Mus musculus with 12 samples.

Results

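The 10 genes described here are 9 chemokines (Cxcl1, Cxcl9, Cxcl10, Cxcl12, Cxcl13, Cxcl16, Cx3cl1, Ccl2 and Ccl5) and the cytokine Il34, measured in isolated glomeruli, the filtering units of the kidney. They were found as the probe sets whose platform annotation gives exactly 1 gene symbol, equal to one of these names, which gave 20 of the 45037 probe sets on the array. Where a gene had several, the one with the highest mean over the 12 arrays stood for it, here and for all 18201 genes with 1 symbol. Of the 10 genes 9 were among the 11921 genes tested, and Cxcl9 was too low to be tested. Chemokines are small secreted or membrane-bound proteins that steer leukocytes along gradients by binding G protein-coupled receptors. In glomerulonephritis they are known for drawing neutrophils, monocytes and lymphocytes to the inflamed capillary tuft. Il34 is a second ligand of the receptor Csf1r, through which monocytes and macrophages survive and mature.

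The arrays came from female mice aged 8 to 10 weeks of the inbred strains C57BL6J and 129S2SvPAs, in 4 groups of 3 mice with 1 array per mouse. Challenged mice, labelled anti-GBM GN for anti-glomerular basement membrane glomerulonephritis, received nephrotoxic serum on days 0, 1 and 2 and were killed on day 4. The other groups were controls of the same strains, labelled with the same day. The labels do not say whether controls received another serum, and their free-text description repeats the wording of the challenged mice, so that groups were taken from titles and treatment. Glomeruli were collected on nylon sieves of 100 and 45 µm. The model is an antibody injected from outside, read at 1 time point, and the groups otherwise carry no transgene or drug in the labels. The comparison asks how the genetic background shapes the response to the challenge.

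Values are log2 probe set signals, and many lie on a dense floor near the median of the whole table, 3.03. A value at or below 3.53, the median plus 0.5, is called on the floor here, and a difference from or to the floor can be smaller than the true one. The number of arrays limits the precision. The fit gives each gene 1 spread over the 4 groups. Groups on the floor hardly spread, so that the SE and p of a gene with such groups can be too small. None of the 7 podocyte markers measured lay on the floor throughout a group, and neither did any of the 12 markers of the proximal tubule (array means 11.25 to 12.45), so that the arrays of isolated glomeruli also read tubular transcripts. The array of 129S2SvPAs anti-GBM GN replicate 1 stood apart, with correlations of 0.973 and 0.974 with the others of its group against 0.994 between those, so that several results are also given without it. Without it 136 genes in place of 67 passed for the difference of responses, 1141 in place of 845 in the C57BL6J response and 2649 in place of 2424 in the 129S2SvPAs response. In such bulk samples fewer cells of a type and less RNA per cell cannot be told apart.

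After the challenge Cxcl1, Cxcl10 and Cx3cl1 were called higher in both strains and Cxcl13 in C57BL6J. Ccl5 and Il34 were called higher and Cxcl12 lower in 129S2SvPAs. A call in 1 strain alone is not a difference between the strains. Genes were called at an adjusted p under 0.05 in limma (Benjamini-Hochberg over all genes tested). In the C57BL6J response 4 of the 9 tested members were called, all higher, where 7.09% of all genes tested were called and 4.78% were called higher. In the 129S2SvPAs response 5 rose and 1 fell, where 20.3% of all genes were called, 10.6% higher and 9.76% lower. The response itself differed between the strains for 2 members, Cxcl1 and Il34, both higher in 129S2SvPAs. Of all genes 0.562% were called for it and 0.268% higher. That call of Cxcl1 was lost in 13 of 21 alternatives. For Ccl5 (adjusted p = 0.893, limma), Cxcl13 (0.117) and Cxcl12 (0.211), each called in 1 strain, the difference of the responses did not pass. Between the controls 2 members, Cxcl13 and Ccl5, were lower in 129S2SvPAs, where 8.43% of all genes were called and 5.11% lower. Between challenged mice Cxcl1 and Il34 were higher in 129S2SvPAs and Cxcl12, Cxcl13 and Ccl5 lower. There 8.38% of all genes were called, 3.49% higher and 4.89% lower. Genes were tested if above 3.03 on at least 3 arrays. Il34 passed that filter only through the 3 challenged 129S2SvPAs arrays where it is high, so that its calls in these counts were in part fixed by it. Cxcl13 and Ccl5 passed it only with the arrays of C57BL6J, where they are higher, so that their strain differences were in part fixed by it too. Of the 9 tested members 5 had arrays that did not overlap between control and challenged C57BL6J mice, and 6 between those of 129S2SvPAs. Between the strains this held for 4 in controls and 7 in challenged mice. Over all genes tested the same held for 29.1%, 32.5%, 31.6% and 27.9%. The 4 in controls include Ccl2 and Il34, which lay on the floor in the controls of both strains and differed by only 0.13 and −0.03. The members were chosen with earlier results of these data known, so that these counts are a description.

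**Figure D1:**
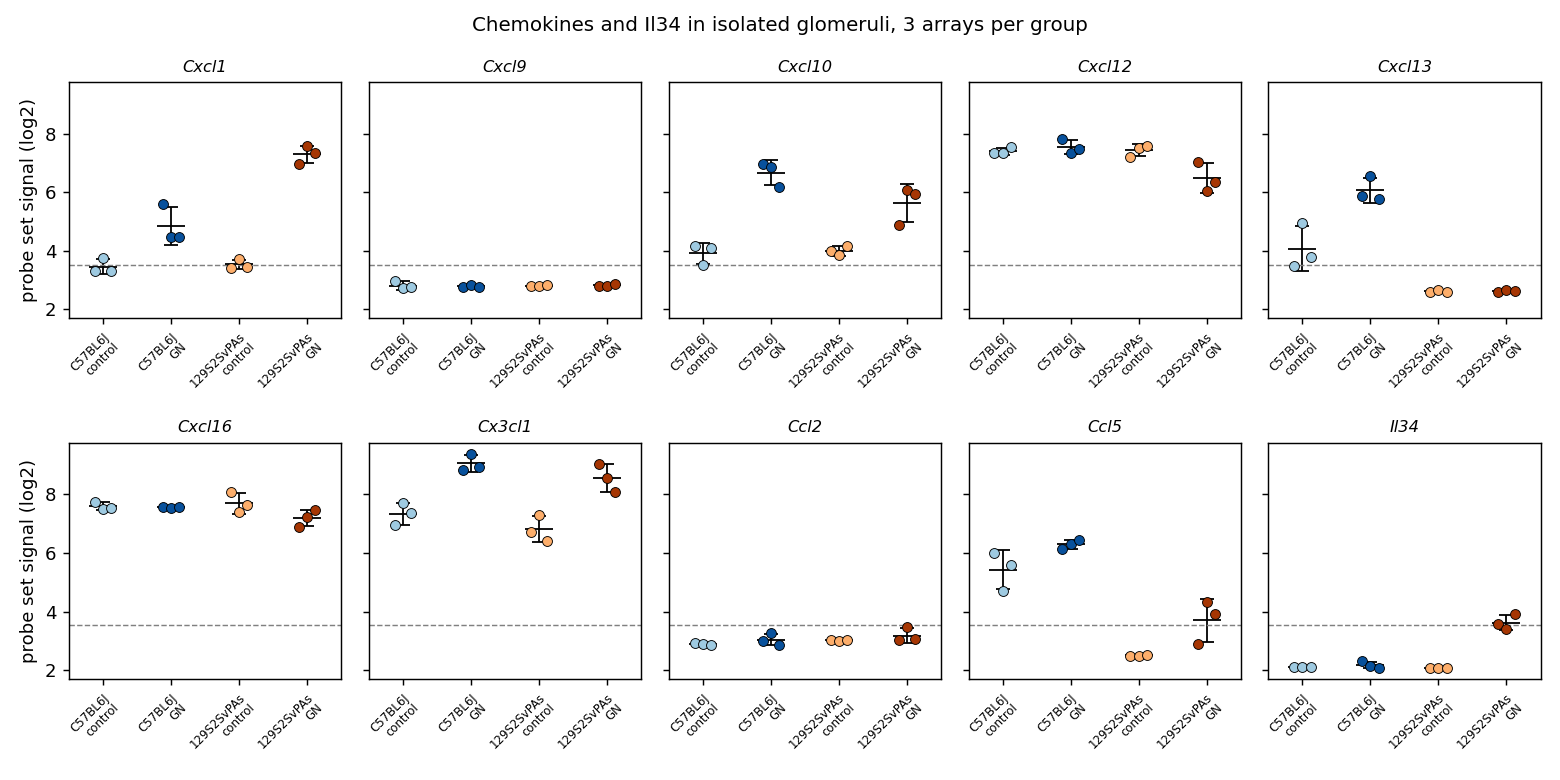
Log2 probe set signal (vertical axis) of the 10 genes in the 4 groups (GN is anti-GBM GN), with a point per array, the group mean and its SD (n = 3); the dashed line is the floor limit of 3.53. Cxcl9 and Ccl2 lie below the line on all 12 arrays, Cxcl13 does so on the 6 arrays of 129S2SvPAs, and Cxcl1 reaches 6.97 to 7.56 in challenged 129S2SvPAs mice.

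Cxcl1, the ligand of the neutrophil receptor Cxcr2, was low in both sets of controls and rose in both strains, further in 129S2SvPAs. The C57BL6J control arrays read 3.32, 3.75 and 3.32, and the challenged ones 5.58, 4.47 and 4.46. The 129S2SvPAs control arrays read 3.43, 3.72 and 3.45, and the challenged ones 6.97, 7.56 and 7.34. All challenged arrays lay above all controls, and the 3 challenged arrays of 129S2SvPAs lay above the 3 of C57BL6J. The rise was 1.37 (SE 0.28, 2.59-fold, n = 3 per group, adjusted p = 0.0148, limma) in C57BL6J and 3.76 (SE 0.28, 13.5-fold, adjusted p = 1.86e-05) in 129S2SvPAs. The difference of the rises was 2.38 (SE 0.40, adjusted p = 0.0358), and challenged mice differed by 2.45 (SE 0.28, 5.48-fold, adjusted p = 0.000382), whereas controls differed by 0.07 (interval −0.55 to 0.69).

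The call of the difference of the Cxcl1 rises was near its threshold. It was lost when any 1 of 10 arrays was left out (adjusted p 0.0616 to 0.105, difference 2.20 or more) and held without C57BL6J anti-GBM GN replicate 1 or without 129S2SvPAs anti-GBM GN replicate 1 (2.54 without the latter, adjusted p = 0.0229). It was also lost with the replicate number as a block (adjusted p = 0.0666), and over all alternatives its adjusted p ran from 0.00299 to 0.105. The call in C57BL6J was lost without C57BL6J control replicate 1 or 3 (adjusted p 0.0635 and 0.0605, and 0.00617 to 0.0635 over all alternatives). With the mean of all Cxcl1 probe sets the rise in 129S2SvPAs was 2.46 and kept its call. Another probe set of Cxcl1 rose by 1.70 (SE 0.25, adjusted p = 0.00324) in C57BL6J and by 2.95 (SE 0.25, adjusted p = 5.20e-05) in 129S2SvPAs. There the difference of rises was 1.26 (SE 0.36, adjusted p = 0.225), and the 129S2SvPAs controls, at 3.94, 3.59 and 2.89, included higher values than the C57BL6J controls, at 2.86, 2.89 and 2.85.

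Cxcl10, a ligand of the receptor Cxcr3 on activated T cells that is known for its induction by interferons, rose in both strains, and its highest values were in C57BL6J. The C57BL6J arrays read 4.15, 3.5 and 4.10 in controls and 6.97, 6.85 and 6.18 after the challenge. The 129S2SvPAs arrays read 3.98, 3.85 and 4.17 in controls and 4.88, 6.07 and 5.94 after the challenge. Every challenged array lay above every control, and the challenged arrays of C57BL6J lay above those of 129S2SvPAs, the lowest of which was replicate 1. The rise was 2.75 (SE 0.32, 6.73-fold, adjusted p = 0.000533, limma) in C57BL6J and 1.63 (SE 0.32, 3.10-fold, adjusted p = 0.00473) in 129S2SvPAs, and both calls held with each array left out. The difference of the rises, −1.12 (interval −2.12 to −0.12), missed the threshold at an adjusted p of 0.394, and was −0.745 without 129S2SvPAs anti-GBM GN replicate 1. Between challenged mice 129S2SvPAs was lower by 1.04, a difference of −1.04 (SE 0.32) that missed it too (adjusted p = 0.0760). That value was −0.66 (adjusted p = 0.151) without 129S2SvPAs anti-GBM GN replicate 1 and passed at −1.28 (adjusted p = 0.0480) without C57BL6J anti-GBM GN replicate 3, and its adjusted p ran from 0.0265 to 0.233 over all alternatives. Cxcl9, another Cxcr3 ligand known to follow interferon gamma, stayed on the floor on all 12 arrays, at 2.72 to 2.98 on the probe set with the higher mean and at 2.23 to 2.28 on the other.

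The promoters of the 4 genes called higher in C57BL6J are shown. They were picked by that call, and a shared cause of the rises was not tested. The sequences are the 250 bases before the annotated start of each gene, 5′ to 3′ on the gene's strand, from RefSeq on GRCm38.p6, which is the C57BL/6J genome. The table held 6 of the 10 genes, and Cxcl16, Ccl2, Ccl5 and Il34 were not in it. Capitals mark matches on either strand to a kappaB-type motif GGANNTTCC, an ISRE-type motif GAAANNGAA, an AP-1-type motif TGANTCA or the TATA-type motif TATAAA. N is any base. No match overlapped a match to another motif. They are Cxcl1 at chr5:90890995-90891244 (plus strand), Cxcl10 at chr5:92348890-92349139 (minus strand), Cxcl13 at chr5:95956689-95956938 (plus strand) and Cx3cl1 at chr8:94771930-94772179 (plus strand).
Cxcl1: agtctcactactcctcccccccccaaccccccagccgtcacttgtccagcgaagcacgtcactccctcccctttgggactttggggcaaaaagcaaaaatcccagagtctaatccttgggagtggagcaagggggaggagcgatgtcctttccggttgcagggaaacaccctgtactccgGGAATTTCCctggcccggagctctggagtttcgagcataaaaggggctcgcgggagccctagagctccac
Cxcl10: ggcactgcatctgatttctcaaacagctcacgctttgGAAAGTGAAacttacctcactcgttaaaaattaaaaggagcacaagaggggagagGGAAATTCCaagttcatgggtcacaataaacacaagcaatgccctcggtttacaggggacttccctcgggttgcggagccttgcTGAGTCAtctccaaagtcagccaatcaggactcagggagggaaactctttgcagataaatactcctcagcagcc
Cxcl13: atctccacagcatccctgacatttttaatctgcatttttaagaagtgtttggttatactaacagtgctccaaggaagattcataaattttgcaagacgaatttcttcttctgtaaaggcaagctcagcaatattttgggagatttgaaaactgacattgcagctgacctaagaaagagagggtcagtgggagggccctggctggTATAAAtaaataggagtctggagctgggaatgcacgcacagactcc
Cx3cl1: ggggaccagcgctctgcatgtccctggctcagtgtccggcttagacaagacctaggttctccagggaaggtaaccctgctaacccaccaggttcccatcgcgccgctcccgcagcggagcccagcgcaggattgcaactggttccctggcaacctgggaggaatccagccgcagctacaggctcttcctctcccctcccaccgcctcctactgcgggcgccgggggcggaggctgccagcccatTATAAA
Cxcl1 held the kappaB-type match 70 to 62 bases before its start. Cxcl10 held a kappaB-type match 158 to 150, an ISRE-type match 213 to 205 and an AP-1-type match 74 to 68 bases before its start. Cxcl13 held a TATAAA match 46 to 41 bases and Cx3cl1 one 6 to 1 bases before the start, and neither held any of the other 3 motifs. Whether such a match serves as a TATA box was not tested. Of the 27025 promoters of the same length 3.56% held the kappaB-type motif, 7.16% the ISRE-type, 6.87% the AP-1-type and 13% the TATA-type. Of the promoters not printed, that of Cxcl9 held an ISRE-type and a TATA-type match, and that of Cxcl12 held none of the 4 motifs. These are matches of letters, and binding was not measured.

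Cx3cl1 and Cxcl16 are the chemokines made as membrane proteins with the chemokine domain on a stalk, which proteases of the Adam family cut to release it. Cx3cl1, the ligand of Cx3cr1 on monocytes, rose in both strains. Its arrays read 6.96, 7.71 and 7.35 in C57BL6J controls and 8.84, 9.38 and 8.94 after the challenge. In 129S2SvPAs they read 6.73, 7.28 and 6.41 in controls and 9.04, 8.54 and 8.08 after the challenge. No challenged array overlapped the controls of either strain, while the strains overlapped within each treatment. The rise was 1.71 (SE 0.30, 3.28-fold, adjusted p = 0.00552, limma) in C57BL6J and 1.75 (SE 0.30, 3.36-fold, adjusted p = 0.00208) in 129S2SvPAs, and both calls held with each array left out. The difference of the rises was 0.03 with an interval of −0.89 to 0.95, so that differences of that size were within the error. Of the other Cx3cl1 probe sets, the one above the floor read lower (3.56 to 4.72) and its rises of 0.49 and 0.45 were not called (adjusted p 0.213 and 0.152). With the mean of all 4 probe sets the rises were 0.55 and 0.53 and kept their call.

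Cxcl16, the ligand of Cxcr6, was well above the floor in every group and was called in none of the comparisons. It read 7.75, 7.50 and 7.52 in C57BL6J controls, 7.55, 7.54 and 7.56 in challenged C57BL6J, 8.08, 7.38 and 7.62 in 129S2SvPAs controls and 6.90, 7.24 and 7.45 in challenged 129S2SvPAs mice. The challenged 129S2SvPAs arrays lay below those of challenged C57BL6J mice, and the other groups compared overlapped. Its change was −0.04 (interval −0.45 to 0.37) in C57BL6J and −0.50 (interval −0.90 to −0.09, adjusted p = 0.0843, limma) in 129S2SvPAs. The latter passed without 129S2SvPAs control replicate 2 (−0.65, adjusted p = 0.0377), and its adjusted p ran from there to 0.275 over all alternatives. Among the sheddases, Adam10 rose by 0.57 (SE 0.13, adjusted p = 0.0264) in C57BL6J and by 0.75 (SE 0.13, adjusted p = 0.00267) in 129S2SvPAs, and Adam17 had values of 0.25 and 0.61 that did not pass (adjusted p 0.581 and 0.0743).

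Cxcl12, which holds Cxcr4-bearing cells in place and is made by podocytes and stromal cells, fell in 129S2SvPAs. The arrays read 7.33, 7.33 and 7.53 in C57BL6J controls and 7.82, 7.34 and 7.47 after the challenge. In 129S2SvPAs they read 7.21, 7.52 and 7.57 in controls and 7.04, 6.05 and 6.36 after the challenge. The 3 challenged 129S2SvPAs arrays were the lowest of the 12, with replicate 1 the nearest to the others. The change was −0.95 (SE 0.23, adjusted p = 0.0138, limma) in 129S2SvPAs and 0.15 (interval −0.36 to 0.65) in C57BL6J, and challenged mice differed by −1.06 (SE 0.23, adjusted p = 0.0167). The fall was lost without 129S2SvPAs anti-GBM GN replicate 2 (−0.73, adjusted p = 0.0519), was −0.53 with the mean of all probe sets and had an adjusted p of 0.000453 to 0.0777 over all alternatives. The strain difference was lost without that array (adjusted p = 0.0521), without replicate 3 of the same group (0.0607) or without C57BL6J anti-GBM GN replicate 1 (0.0712), with 0.000294 to 0.0915 over all alternatives. Without 129S2SvPAs anti-GBM GN replicate 1 the fall was −1.23 (adjusted p = 0.00105) and the strain difference −1.34 (adjusted p = 0.00133).

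The difference of the Cxcl12 responses was −1.10 (SE 0.32) and missed the threshold at an adjusted p of 0.211, though it passed without 129S2SvPAs anti-GBM GN replicate 1 (−1.38, adjusted p = 0.0257). Its adjusted p ran from 0.0209 to 0.416 over all alternatives. A second Cxcl12 probe set behaved differently in C57BL6J. It read 6.20, 6.41 and 6.14 in C57BL6J controls and 7.69, 6.72 and 7.16 after the challenge, a rise of 0.94 (SE 0.24, adjusted p = 0.0493). In 129S2SvPAs it read 5.61, 6.09 and 5.79 in controls and 5.48, 4.88 and 5.26 after the challenge, a change of −0.62 (SE 0.24, adjusted p = 0.104). Between challenged mice it was lower in 129S2SvPAs by a difference of −1.98 (SE 0.24, adjusted p = 0.000608). Both probe sets therefore put challenged 129S2SvPAs mice below challenged C57BL6J mice and disagree on whether C57BL6J changed. The remaining probe set lay on the floor on all 12 arrays.

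**Figure D2:**
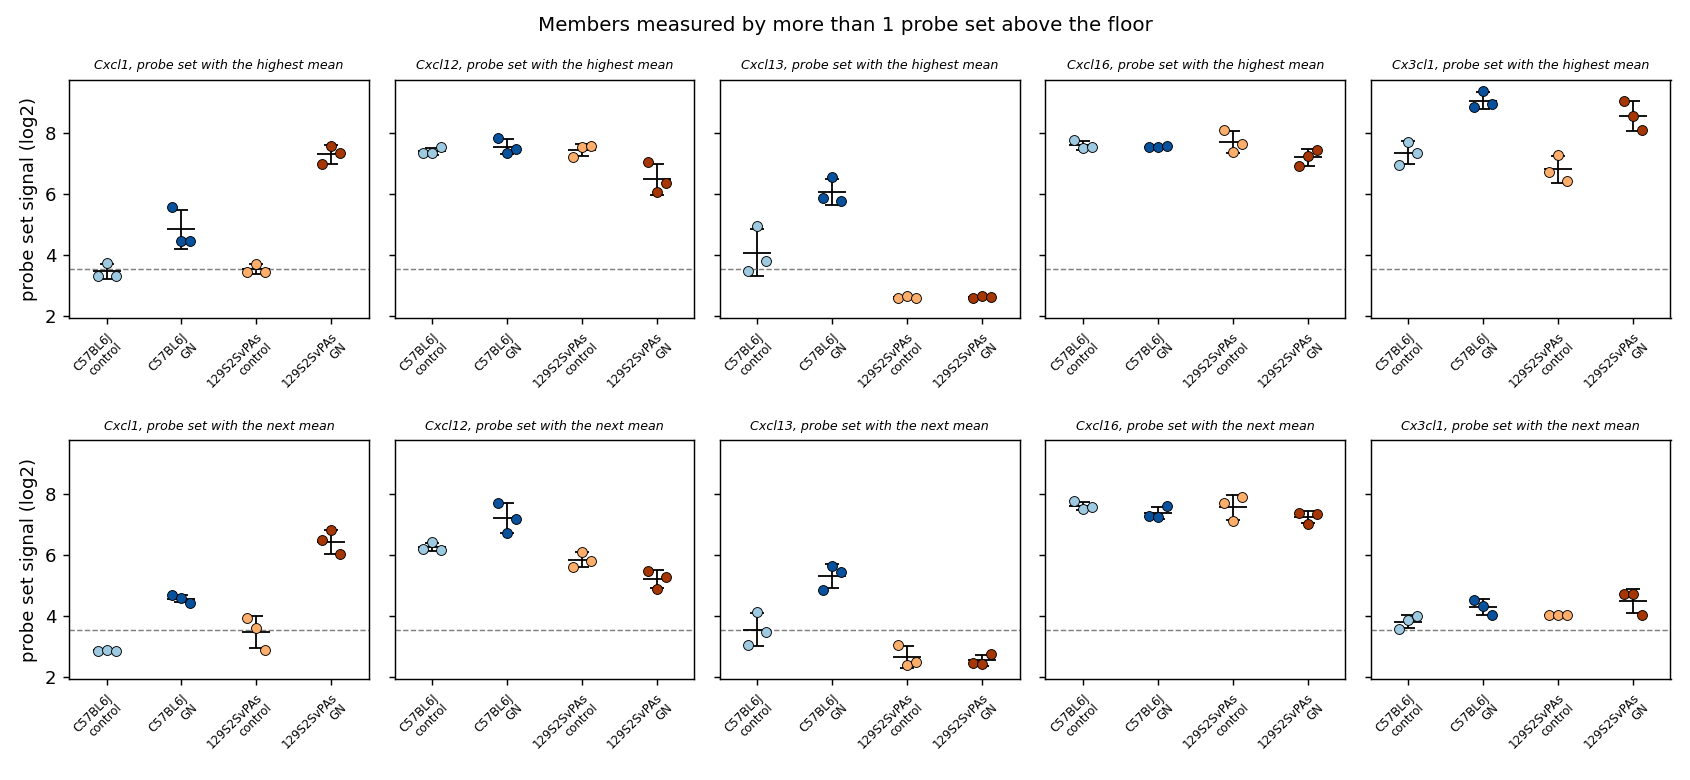
Log2 probe set signal (vertical axis) of the 5 genes with a second probe set above the floor limit on some array, by group (GN is anti-GBM GN), with a point per array, the mean and its SD (n = 3) and the floor limit of 3.53 as a dashed line. The upper row is the probe set with the highest mean and the lower row the next one: the Cxcl12 probe sets differ in challenged C57BL6J mice, and the second Cx3cl1 probe set stays between 3.56 and 4.72.

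Cxcl13, which draws Cxcr5-bearing B cells, was measured above the floor only in C57BL6J, and it rose there. The C57BL6J arrays read 3.48, 4.95 and 3.79 in controls and 5.86, 6.56 and 5.78 after the challenge. The 129S2SvPAs arrays read 2.59, 2.67 and 2.61 in controls and 2.59, 2.67 and 2.62 after the challenge. All 6 arrays of 129S2SvPAs were thus on the floor and all 3 challenged C57BL6J arrays lay above their controls. The gene entered the test only through its 6 C57BL6J arrays, so that its strain differences were in part fixed by the filter. The rise in C57BL6J was 1.99 (SE 0.32, 3.98-fold, adjusted p = 0.00392, limma) and held with each array left out. Challenged 129S2SvPAs mice differed from challenged C57BL6J mice by −3.44 (SE 0.32, 10.9-fold lower, adjusted p = 0.000105). These SEs pool the 4 groups. The SD was 0.77 and 0.43 in control and challenged C57BL6J mice and 0.04 in each group of 129S2SvPAs, so that the SEs can be too small.

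Between controls the Cxcl13 difference was −1.45 (SE 0.32, adjusted p = 0.0200), and this call was lost without 129S2SvPAs control replicate 1 (adjusted p = 0.0614) or 3 (0.0567), with 0.00946 to 0.0843 over all alternatives. The difference of the responses, −1.99 (SE 0.46), missed the threshold (adjusted p = 0.117) and passed without C57BL6J control replicate 2 (−2.43, adjusted p = 0.0130), the highest of the controls. Its adjusted p ran from there to 0.252 over all alternatives. A second probe set rose by 1.75 (SE 0.29, adjusted p = 0.00560) in C57BL6J, from arrays at 3.06, 4.12 and 3.47 to 4.85, 5.63 and 5.43. It stayed on the floor in 129S2SvPAs, at 2.39 to 3.05.

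Ccl5, a chemokine made by T cells, platelets and other leukocytes, was lower in 129S2SvPAs with and without the challenge. The C57BL6J arrays read 6.0, 4.69 and 5.58 in controls and 6.13, 6.29 and 6.45 after the challenge. The 129S2SvPAs arrays read 2.50, 2.50 and 2.51 in controls, on the floor, and 2.90, 4.32 and 3.90 after the challenge, with replicate 1 still on it. Every 129S2SvPAs array lay below every C57BL6J array. The strain difference was −2.92 (SE 0.36, 7.57-fold lower, adjusted p = 0.000613, limma) in controls and −2.58 (SE 0.36, 5.99-fold lower, adjusted p = 0.00138) in challenged mice, and both calls held with each array left out, the latter at −2.18 without 129S2SvPAs anti-GBM GN replicate 1. Ccl5 has 1 probe set, so that no other one checks these values. It passed the filter only with its C57BL6J arrays, so that its strain differences were in part fixed by the filter. Its SE pools the 4 groups, with an SD of 0.006 in 129S2SvPAs controls against 0.16 to 0.73 in the others.

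Ccl5 rose by 1.20 (SE 0.36, 2.30-fold, adjusted p = 0.0385, limma) in 129S2SvPAs. Its difference of 0.87 in C57BL6J (interval 0.07 to 1.67, adjusted p = 0.197) did not pass, though all challenged C57BL6J arrays lay above the C57BL6J controls. The responses differed by 0.34 (interval −0.80 to 1.47, adjusted p = 0.893), so that the rise was not shown to be particular to 129S2SvPAs. The C57BL6J value was 0.50 without C57BL6J control replicate 2, and the difference of responses ran from 0.03 without 129S2SvPAs anti-GBM GN replicate 2 to 0.74 without replicate 1 of that group. The rise in 129S2SvPAs was near its threshold. It was lost when any 1 of 9 arrays was left out (adjusted p 0.0521 to 0.136) and with the replicate number as a block (0.0605), and its adjusted p was 0.00210 to 0.136 over all alternatives. It held without C57BL6J control replicate 1 or 2 and without 129S2SvPAs anti-GBM GN replicate 1 (1.61, adjusted p = 0.00531), the last of which is the lowest challenged array.

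Pan-leukocyte markers were lower in challenged 129S2SvPAs mice, as were Ccl5 and Cxcl13. Of the 5 pan-leukocyte markers (Ptprc, Cd52, Laptm5, Coro1a and Cd53) all were lower in challenged 129S2SvPAs than in challenged C57BL6J mice, by differences of −1.72 (Laptm5) to −2.31 (Coro1a), and 2 (Cd52, Cd53) were lower in controls, where the other 3 did not pass. Of the 8 monocyte and macrophage markers tested none differed between controls in limma (0 at an unadjusted p under 0.05), and between challenged mice 1 was lower in 129S2SvPAs (Csf1r) and 1 higher (Cd14). The pan-leukocyte mean per array ran from 6.37 to 7.25 in C57BL6J controls and 6.28 to 7.32 in challenged C57BL6J mice. It ran from 4.56 to 6.05 in 129S2SvPAs controls and 4.72 to 5.0 in challenged 129S2SvPAs mice. All 8 T cell markers measured were on the floor on all 12 arrays, and 4 of 6 B cell markers were. Of the B cell markers Cd79b was lower in 129S2SvPAs controls, at −1.53 (adjusted p = 0.00287), and Ms4a1 fell by 0.46 in the C57BL6J response (adjusted p = 0.0278). Of all genes tested 5.11% were called lower in 129S2SvPAs between controls, and 4.89% lower and 3.49% higher between challenged mice. The part of the leukocyte markers in the Ccl5 and Cxcl13 differences was not tested.

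Ccl2, the ligand of Ccr2 on inflammatory monocytes, lay on the floor on all 12 arrays, at 2.85 to 3.47. It passed the filter on 4 arrays above 3.03, and the highest reading was 129S2SvPAs anti-GBM GN replicate 2. Its change was 0.15 (interval −0.15 to 0.46) in C57BL6J and 0.16 (interval −0.15 to 0.46) in 129S2SvPAs, and no rise was detectable on this probe set. The receptor Ccr2 read between 2.60 and 3.72 and was above the floor on 1 array, C57BL6J anti-GBM GN replicate 1.

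Il34 left its lowest level in 1 group only, the challenged 129S2SvPAs mice. It read 2.11, 2.11 and 2.10 in C57BL6J controls and 2.30, 2.13 and 2.09 after the challenge. It read 2.08, 2.07 and 2.09 in 129S2SvPAs controls and 3.56, 3.41 and 3.91 after the challenge. The 9 other arrays lay within 2.07 to 2.30, and of the 3 high ones 2 exceeded the floor limit. The gene entered the test only through those 3 arrays, which are the ones where it is high, so that its call was in part fixed by the filter. The rise was 1.55 (SE 0.13, adjusted p = 3.15e-05, limma) in 129S2SvPAs and 0.07 (interval −0.21 to 0.35) in C57BL6J, and the difference of the responses was 1.48 (SE 0.18, adjusted p = 0.00641). With an array left out the difference was 1.34 to 1.59, but the genes tested were kept, and without any of the 3 high arrays Il34 would not have passed the filter. Its call held with no filter, and it was not tested under the stricter filter. Challenged mice differed by 1.45 (SE 0.13, adjusted p = 6.24e-05). The SEs of Il34 pool the 4 groups. The SD was 0.26 in challenged 129S2SvPAs mice, 0.11 in challenged C57BL6J mice and 0.01 in each set of controls, so that the SEs can be too small. Over all alternatives the adjusted p of the rise in 129S2SvPAs reached 0.00401 (limma). The level of Il34 in challenged 129S2SvPAs mice is still close to the floor, and Il34 has 1 probe set.

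**Figure D3:**
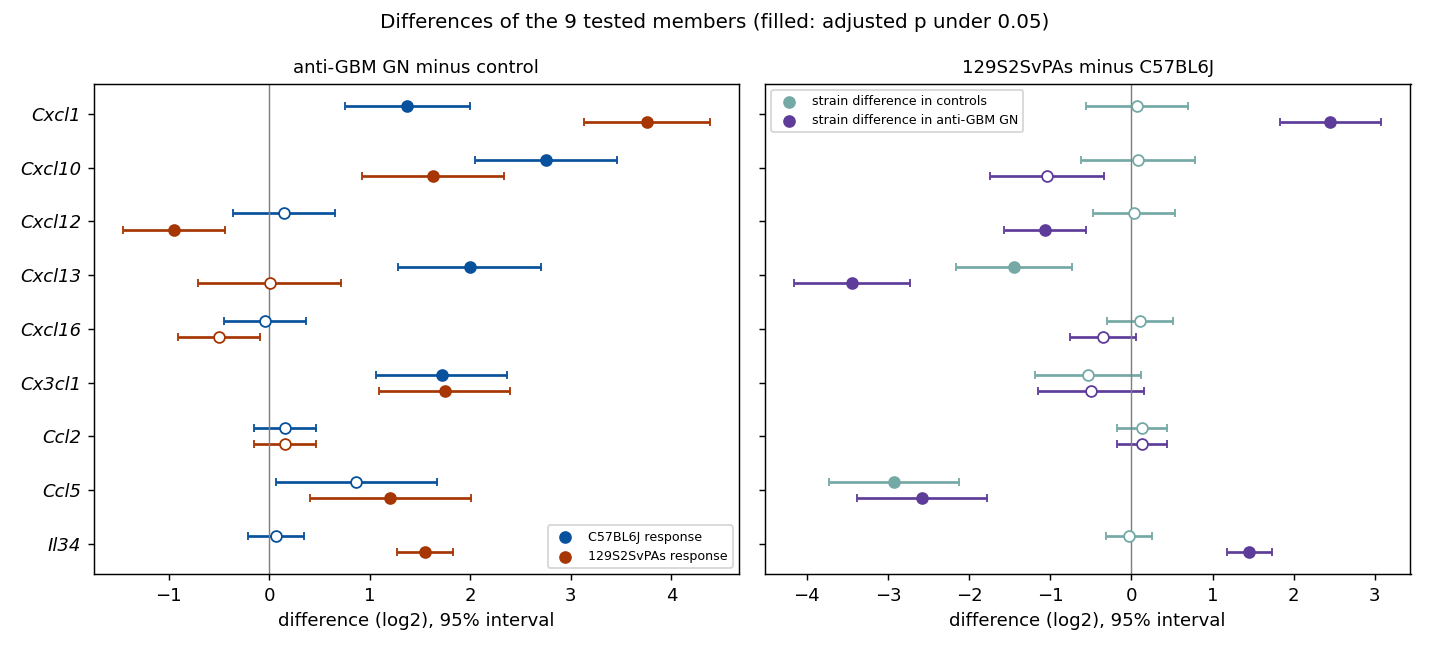
Log2 differences (horizontal axis) of the 9 tested members with 95% intervals from the moderated test, for challenged less control mice of a strain (left) and 129S2SvPAs minus C57BL6J in each treatment (right); filled points passed an adjusted p under 0.05. Cxcl1 lies at 1.37 and 3.76 on the left, the intervals of Cx3cl1 nearly coincide, and Cxcl13 and Ccl5 lie furthest below 0 on the right.

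The order of the group means is given here for 6 members. For Cxcl1 the order was challenged 129S2SvPAs, challenged C57BL6J and then the controls, which did not differ beyond their spread. For Cxcl10 it was challenged C57BL6J, challenged 129S2SvPAs and the controls, with the challenged groups apart on the arrays but not past the threshold. For Cx3cl1 the challenged groups came first and the controls after them, with the strains within each treatment not past the threshold. For Cxcl13 and Ccl5 challenged C57BL6J mice came first and C57BL6J controls next, and the groups of 129S2SvPAs came last. For Cxcl12, on the probe set with the highest mean, challenged 129S2SvPAs mice came last and the other 3 groups overlapped. On its second probe set no groups overlapped, in the order challenged C57BL6J, C57BL6J controls, 129S2SvPAs controls and challenged 129S2SvPAs.

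The receptors of these ligands were mostly on the floor, and none of the 10 receptors tested was called in either response. Among all genes tested 7.09% were called in C57BL6J and 20.3% in 129S2SvPAs. Of the 23 receptors measured 14 were on the floor on all 12 arrays. At an unadjusted p under 0.05, limma had 3 of the 10 in C57BL6J and 1 in 129S2SvPAs. Cxcr2, Cxcr3, Cxcr5 and Cxcr6, the receptors of Cxcl1, Cxcl10, Cxcl13 and Cxcl16, were on the floor on all arrays, and so was Ptprz1, a second receptor of Il34. Cx3cr1, the receptor of Cx3cl1, was above the floor limit on 1 array (3.57, C57BL6J anti-GBM GN replicate 1). Cxcr4 read 3.82 to 5.69 and was not called, with −1.03 (SE 0.34, adjusted p = 0.109) in C57BL6J and −0.05 in 129S2SvPAs. Ackr3, which scavenges Cxcl12, read 9.22 to 10.24 in all groups and was not called in either response (0.13 and 0.31). Csf1r, the receptor of Il34 and a marker of macrophages, was lower in challenged 129S2SvPAs (6.75, 6.41 and 6.36) than in challenged C57BL6J mice (8.41, 7.71 and 7.86), at −1.49 (SE 0.34, adjusted p = 0.0207). Sdc1, which also binds Il34, was higher in 129S2SvPAs controls by 0.67 (SE 0.17, adjusted p = 0.0363).

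Other ligands were also mostly on the floor: of 28 measured, 20 were there on all 12 arrays, among them the neutrophil ligands Cxcl2 and Cxcl5. Of the 8 tested, 2 rose in both strains, Ppbp and Pf4, which are stored in platelets and serve here as platelet markers too. Among all genes tested 4.78% were called higher in C57BL6J and 10.6% in 129S2SvPAs. Pf4 rose by 4.31 (SE 0.40) in C57BL6J and 4.86 (SE 0.40) in 129S2SvPAs, with adjusted p of 0.000141 and 3.45e-05. Ppbp rose by 4.77 (SE 0.44) and 2.24 (SE 0.44), with adjusted p of 0.000118 and 0.00460, and in challenged mice it was lower in 129S2SvPAs by a difference of −3.56 (adjusted p = 0.000535). Of the other platelet markers Gp9 rose by 1.36 in C57BL6J (adjusted p = 0.000989). Csf1, the first ligand of Csf1r, read 5.55 to 7.72 and its changes of 0.46 (interval −0.41 to 1.32) and 0.57 (interval −0.29 to 1.44) were not called. Ccl25 was lower in 129S2SvPAs controls by a difference of −0.95 (SE 0.26, adjusted p = 0.0479).

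**Figure D4:**
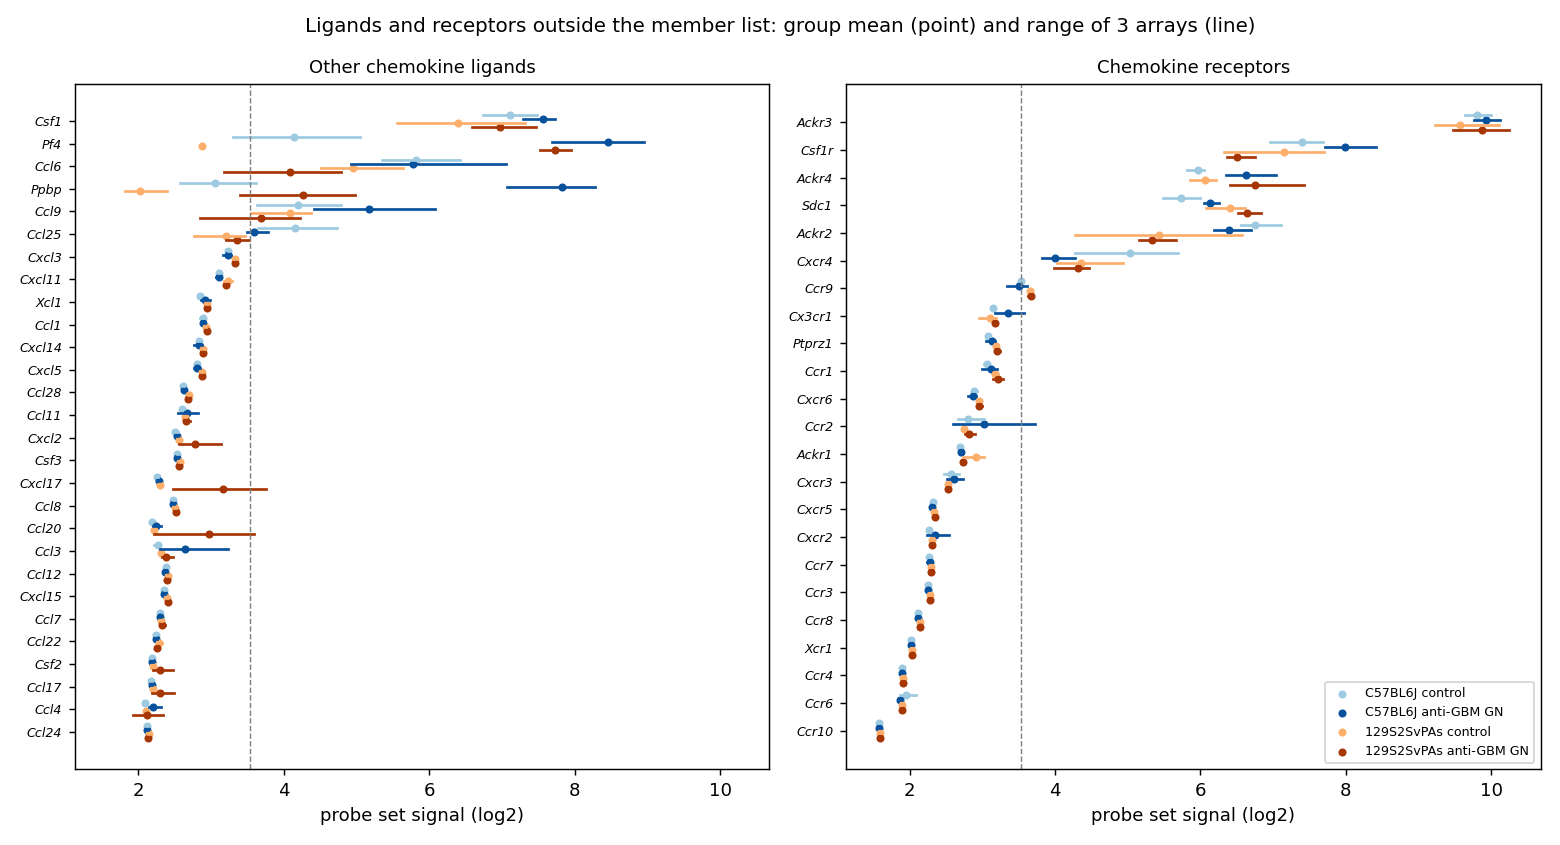
Group mean (point) and range over 3 arrays (line) of the log2 probe set signal (horizontal axis) of the 28 other ligands and 23 receptors measured, with the floor limit of 3.53 as a dashed line; levels of different genes are not comparable. Pf4 and Ppbp are the ligands called higher after the challenge in both strains, and most genes of both panels lie left of the line.

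Of the genes that induce chemokines or feed back on their induction, 7 rose in C57BL6J and 11 in 129S2SvPAs, of 20 tested and 25 measured. Of these 6 rose in both strains, none was called lower in either, and 13 and 9 did not pass the test. Over all genes tested 4.78% and 10.6% were called higher. The median of the 20 was 0.61 in C57BL6J and 0.69 in 129S2SvPAs, against −0.03 and 0.00 over all genes tested. The list was chosen with earlier results of these data known, so that these counts and medians are a description. None of the 20 differed in response between the strains (limma, 1 at an unadjusted p under 0.05). Tnfaip3, a brake on NF-kappaB that the pathway itself induces, rose by 3.02 (SE 0.31) and 2.20 (SE 0.31), in C57BL6J and 129S2SvPAs in that order. In the same order Nfkbie, an inhibitor of NF-kappaB, rose by 2.23 and 1.89, and its subunits Relb by 2.02 and 2.10, Rela by 0.94 and 1.19 and Nfkb2 by 0.92 and 0.70. Irf7, a factor induced by interferon, rose by 1.41 and 1.01. In 129S2SvPAs Irf1, Irf9, Ifngr2, Ifnar1 and Tnfrsf1a rose as well, by 0.60 (Ifnar1) to 2.20 (Ifngr2), and in C57BL6J Il1r1 rose by 0.99 (SE 0.24, adjusted p = 0.0347). In controls 3 interferon factors were lower in 129S2SvPAs, Irf1 at −1.27, Irf7 at −1.34 and Irf9 at −1.06, and in challenged mice Irf7 was lower at −1.74 (adjusted p = 0.00238) and Ifnar1 higher by 0.47 (adjusted p = 0.0444). The cytokines Tnf, Il1a, Il17a, Ifng and Ifnb1 were on the floor on all 12 arrays.

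Markers of monocytes and neutrophils, the cells that Cxcl1 and Ccl2 draw, were read beside the chemokines. Of 8 monocyte and macrophage markers tested 1 rose, in both strains, and this was Cd14, a part of the endotoxin receptor that other cells can also make. It read 4.71, 5.25 and 4.54 in C57BL6J controls and 6.85, 6.86 and 6.24 after the challenge. In 129S2SvPAs it read 4.77, 5.03 and 4.31 in controls and 8.77, 8.91 and 8.90 after the challenge. Cd14 rose by 1.82 (SE 0.24, adjusted p = 0.00111) in C57BL6J and 4.16 (SE 0.24, adjusted p = 4.20e-06) in 129S2SvPAs, and challenged mice differed by 2.21 (SE 0.24, adjusted p = 0.000250). Of the neutrophil markers 7 of 10 were on the floor on all 12 arrays, and Ltf was the 1 of 4 tested that rose, by 0.78 in C57BL6J (adjusted p = 0.0344). S100a8 and S100a9 were lower in 129S2SvPAs controls, at −2.23 and −2.48 (adjusted p 0.0204 and 0.0198). In the 129S2SvPAs response their differences of 1.02 (adjusted p = 0.182) and 1.64 (adjusted p = 0.0597) did not pass, though all 3 challenged arrays lay above the controls for both genes. In C57BL6J their differences were −0.04 and −0.14 and the arrays overlapped. The differences of the responses were 1.06 (adjusted p = 0.673) and 1.78 (adjusted p = 0.448). The other neutrophil markers tested, Ltf (−0.05) and Csf3r (0), were not called in the 129S2SvPAs response. Between challenged mice Ltf was lower in 129S2SvPAs, at −0.997 (adjusted p = 0.00876, limma). There S100a8 (−1.17), S100a9 (−0.70) and Csf3r (−0.03) did not pass. Of all genes tested 4.78% were called higher in the C57BL6J response and 10.6% in that of 129S2SvPAs. Between controls 5.11% were called lower in 129S2SvPAs, and between challenged mice 4.89%. The part of monocytes and neutrophils in the Cxcl1 values was not tested.

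Markers of resident glomerular cells and of tubules also differed between the groups in which Cxcl1, Cxcl12 and Cx3cl1 moved. All 7 podocyte markers were lower in 129S2SvPAs controls than in C57BL6J controls, and in the 129S2SvPAs response Podxl (1.18) and Synpo (1.06) rose while Cdkn1c (−1.35) and Nphs1 (−1.68) fell. Podocyte array means ran from 8.64 to 9.33 and 8.07 to 9.10 in control and challenged C57BL6J mice, and from 6.94 to 7.80 and 6.86 to 7.26 in those of 129S2SvPAs. Endothelial array means ran from 8.537 to 9.34 in C57BL6J controls and from 7.195 to 8.532 in 129S2SvPAs controls. After the challenge they ran from 8.783 to 9.416 and from 8.476 to 8.777. Of 10 endothelial markers 2 were called lower in 129S2SvPAs controls, with 9 at an unadjusted p under 0.05 (limma). In the 129S2SvPAs response 4 of them rose, Robo4 (2.45), Pecam1 (2.67), Plvap (2.19) and Cdh5 (1.71), and Ehd3 fell (−2.56). In C57BL6J Robo4 rose (1.09) and Ehd3 fell (−1.94). Of 5 mesangial markers Des rose in both strains (1.5 and 1.81) and Pdgfrb in 129S2SvPAs (0.98). Of 12 proximal tubule markers 2 fell in C57BL6J and 6 in 129S2SvPAs, Hpd the most in each (−2.06 and −4.40). Of 8 distal markers Pvalb fell in C57BL6J (−1.78), and in 129S2SvPAs 4 fell and Aqp2 rose (1.56). Distal array means ran from 9.52 to 9.855 in C57BL6J controls and from 10.12 to 10.29 in 129S2SvPAs controls. Those of the proximal tubule ran from 11.96 to 12.32 and from 12.23 to 12.45. Over all genes tested 5.11% were called lower between controls. In the 129S2SvPAs response 10.6% were called higher and 9.76% lower, and in the C57BL6J response 7.09% were called, 4.78% higher. The part of glomerular and tubular cell types in the chemokine values was not tested.

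Across the 12 arrays each member with at least 3 arrays above the floor limit was set beside all tested genes by Pearson's r of the log2 values, as a description. The points share the 4 groups, so that any gene with the same group pattern has a high r. The nearest to Cxcl1 were Peg3, Cd14 and Klhl30 (0.98 each). The nearest to Cxcl10 were Ube2c, Birc5 and Ccna2 (0.97 each). The nearest to Cxcl12 were Insr (0.91), Tet2 (0.90) and Tmem25 (0.89), and to Cxcl13 Adcy7 (0.96), Pcsk6 (0.95) and B4galt4 (0.93). The nearest to Cxcl16 were Prpf39 (0.93), Ttc30a1 (0.92) and Cks2 (0.91), to Cx3cl1 Gnb1 (0.99), Itga3 (0.98) and Plekhg2 (0.98), and to Ccl5 Ifi47 (0.97), Rbm28 (0.96) and Igtp (0.95). Among the members themselves r was highest between Cxcl13 and Ccl5 (0.82) and between Cxcl10 and Cx3cl1 (0.81), and lowest between Cxcl1 and Cxcl12 (−0.75).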

How the data were processed

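The authors' deposited values are log2 probe set signals on 12 Affymetrix arrays, rounded to 2 decimals, for 45037 probe sets. The submitters' processing notes name MAS5 and GCRMA without saying which of these made the values, and the log2 scale was read from their range of 1.12 to 15.02. The sources used here give no array dates, so that no batch was tested. Of the probe sets 34957 had 1 annotated symbol, 920 several and 9160 none, and only the first kind was used. Genes above 3.03 on at least 3 arrays were tested in limma 3.58.1 (R 4.3.3), with 4 group means, empirical Bayes moderation (10.7 degrees of freedom) and Benjamini-Hochberg adjustment within each of 5 contrasts. The fit was tested on simulated data with known changes. Figures used Python 3.11.15 and matplotlib 3.10.9.

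The members, the lists and the rule for named genes were chosen with earlier results of these data known. That rule takes all members with every probe set, their receptors, Adam10, Adam17, Csf1, Cxcl2 and Cxcl5. It adds up to 6 called genes per contrast from the lists of ligands, receptors and inducers, up to 4 per response from each marker list, and 3 most similar genes per member. Marker genes named for a strain difference were chosen after their values were seen. The alternatives were another normalization or filter, other uses of probe sets, prior, array weights, the groups fitted, a replicate block, a fold limit and leaving out each array. Replicate numbers come from the titles. Deviations of same-numbered arrays correlated at 0.21 to 0.33 in C57BL6J and 0.24 to 0.28 between controls, but at −0.16 to 0.18 in 129S2SvPAs and −0.38 to 0.12 between challenged mice, so that the numbers were not taken to pair the arrays over the design.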

Additional observations from a re-analysis of the deposited data

Results flagged for a closer look

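The response to the challenge differed between the strains, by the test of the difference itself in limma, for 2 members and 1 marker named here. Cxcl1 rose by 2.38 more in 129S2SvPAs than in C57BL6J (log2, SE 0.40, adjusted p = 0.0358), and its challenged arrays were higher in 3 of 3 mice. That call was lost in 13 of 21 alternatives, among them 10 of the 12 with an array left out and the replicate block (adjusted p = 0.0666), and on the second Cxcl1 probe set the difference was 1.26 (adjusted p = 0.225). For Il34 the rise was larger by 1.48 in that strain (SE 0.18, adjusted p = 0.00641), from values near 2.1 and on a probe set that exceeded the floor limit on 2 arrays. Il34 passed the filter only through the 3 arrays where it is high, so that this call was in part fixed by the filter. For Cd14, listed as a monocyte and macrophage marker, it was larger by 2.34 (SE 0.34, adjusted p = 0.0193). Groups of 3 were too small for a test of outlying values within a group, and the array of 129S2SvPAs anti-GBM GN replicate 1 was noted by its correlations with the others instead.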

How the results depend on the processing

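Of 19 called member differences 13 kept their call under every alternative in which 1 value stood for a gene, and none reversed. Of 799 such alternative values for members 735 kept direction and side of the threshold. Probe sets fitted singly are outside these counts. There the second Cx3cl1 probe set was not called in either strain (0.49 and 0.45, adjusted p 0.213 and 0.152, limma). The second ones of Cxcl1 (129S2SvPAs, 2.95) and Cxcl13 (C57BL6J, 1.75) were called. The 13 include the calls of Il34, which were in part fixed by the filter, because the genes tested were kept when an array was left out. They also include the Cxcl13 difference between challenged mice and both strain differences of Ccl5. Cxcl13 and Ccl5 passed the filter only with the arrays of C57BL6J, where they are higher. Their strain differences were thus in part fixed by it too. Il34 and Cxcl13 were not tested under the stricter filter, so that their calls could not be lost there. The count of members called for the difference of responses was 2 and became 1 with no filter, the stricter filter, the mean of all probe sets or the replicate block, and 1 to 3 with an array left out. Between controls it was 2 and became 1 with no filter, the stricter filter or only the groups compared, and 1 to 2 with an array left out, and between challenged mice 5 became 3 under the stricter filter, which tests fewer members. Values that changed sign were small and not called: the Cx3cl1 difference of responses (−0.0625 with quantile normalization, −0.0275 with the mean of all probe sets, −0.19 with array weights, −0.21 to 0.27 with an array left out), the Cxcl12 difference between controls (−0.12 with the mean of all probe sets, −0.0317 to 0.15 with an array left out), and, with an array left out, the differences between controls of Cxcl1 (−0.0233 to 0.21), Cxcl10 (−0.13 to 0.20) and Cxcl16 (−0.09 to 0.26) and the Cxcl16 change in C57BL6J (−0.085 to 0.04). The replicate block changed the calls of Cxcl1 (difference of responses, adjusted p = 0.0666) and Ccl5 (129S2SvPAs, 0.0605) and no other member call, and took the genes called for the difference of responses from 67 to 33. Cxcl12 in 129S2SvPAs, at −0.95, is lost where a change of at least 1 is asked, and the mean of all probe sets lowered the Cxcl1 difference of responses to 1.40 (adjusted p = 0.0658). With only the groups compared in the fit, Cxcl1 in C57BL6J (adjusted p = 0.0511), Ccl5 (0.0842) and Cxcl12 (0.0777) in 129S2SvPAs, Cxcl13 between controls (0.0843) and Cxcl12 between challenged mice (0.0915) were lost. With no filter Ccl5 in 129S2SvPAs (0.0877), Cxcl1 (difference of responses, 0.0743) and Cxcl13 between controls (0.0517) were lost. Over all alternatives the genes called ran from 407 to 2021 in C57BL6J (main 845), 1109 to 3830 in 129S2SvPAs (2424), 15 to 286 for the difference of responses (67), 503 to 1601 between controls (1005) and 553 to 2256 between challenged mice (999), with the highest count of each under array weights. With a floor limit at the median plus 0.3 or plus 1, 1 or 3 members were on the floor on all arrays in place of 2, and with 50 bases after the start 2 promoters in place of 1 held the AP-1-type motif. Signals near the floor limit what can be said of Ccl2, Cxcl9 and Il34. The causes of these changes were not tested.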
